A study of Homo sapiens with 2 samples.

Results

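The mRNAs of 10 enzymes that remove peroxides and reactive compounds were followed from HCT116 cell lysate into a CNBP immunoprecipitate: the 6 peroxiredoxins PRDX1, PRDX2, PRDX3, PRDX4, PRDX5 and PRDX6, the glutathione peroxidases GPX1 and GPX4, and the glutathione transferases GSTP1 and GSTO1. They were taken by gene symbol from a table of 10836 rows, and each of the 10 had 1 row. The group was selected on measured values of this same comparison, in which GSTO1 was known to have one of the lowest ratios, so every ratio of RIP to input below is a description without a test.

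HCT116 is a human colorectal carcinoma cell line. CNBP is a nucleic-acid binding protein with zinc fingers, and the study asked which mRNAs it binds and where. The 2 libraries were input RNA (labelled Put5) and RNA from the CNBP immunoprecipitation (labelled IP5), both from cells irradiated with UV light of 254 nm at 200 mJ/cm2 and then sonicated, with 1 library in each group. With no replicate there was no spread and no test, and no library from a control antibody was analysed here, so recovery on the beads without CNBP is unknown.

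Peroxiredoxins reduce hydrogen peroxide and organic peroxides with a cysteine in their active site, and most are returned to the reduced form by thioredoxin. Glutathione peroxidases reduce peroxides at the expense of glutathione, and glutathione transferases join glutathione to electrophiles or use it to reduce them. Many of these proteins are abundant in epithelial and tumour cells.

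Levels were FPKM, fragment counts scaled for transcript length and for mapped fragments. Setting them side by side between genes assumes even coverage along each transcript, which was not tested in either library. The log2 ratio was log2(RIP FPKM + 1) minus log2(input FPKM + 1), and folds named below are on that scale. The summed FPKM was 109684 after RIP and 214387 for input RNA, a difference of 1.95-fold, and the read depth is unknown. The table holds only rows with at least 0.5 FPKM in 1 of the libraries. Of 10 epithelial markers, 8 had a row, with 0.415 to 564 FPKM in the input, and 7 of the 8 were at 1 FPKM or more there. VIL1 and CDH17 had no row. Of 6 fibroblast markers only COL1A1 had a row (0.199 FPKM in the input, 4.92 in the RIP), and of 7 blood markers only HBA1 had a row (1.89 and 0).

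CNBP is known to prefer G-rich RNA with the core GGAG, and the study placed its contact with a target mRNA in the 5′ untranslated region. The first 50 transcribed bases of each gene start in RefSeq's promoter table (build GRCh38.p14) were therefore searched for GGAG on the sense strand only. The table holds 8 of the 10 genes, while PRDX1 and PRDX6 have no entry. At least 1 start carried GGAG in 5 of these 8. In the expression table, 4333 of 8370 matched genes (51.8%) carried it, as did 36.6% of all 35116 windows of the promoter table. All sites found in these windows are shown, whatever the ratio of the gene, with every GGAG in capitals (in GPX4, 2 overlapping cores):
GPX1, chr3:49358336-49358353, minus strand: aaaaGGAGgcgcctgctg
PRDX5, chr11:64318311-64318334, plus strand: gtacagtgaaGGAGagtgggcgtc
GPX4, chr19:1104003-1104029, plus strand: ctggacgaggGGAGGAGccgctggctc
GSTP1, chr11:67583812-67583828, plus strand: gctGGAGtttcgccgcc
GSTO1, chr10:104254894-104254917, plus strand: aaaccccagaGGAGctcggcctgc
GSTO1, chr10:104254927-104254941, plus strand: cgatgtccggGGAGt

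The site of PRDX5 lay at 1 of its 2 listed starts and that of GPX4 at 1 of 3. None was found in this window of PRDX2, PRDX3 or PRDX4. A match is a run of letters and not a measured binding site. Among the 8 genes, the median log2 ratio was -3.94 with GGAG and -3.09 without it, and among matched genes of the table it was 0.41 with and 0.13 without. GPX1 had the highest ratio of the group and GSTO1 the lowest, and both carried the core.

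Of the 10 mRNAs, 8 were at least 4-fold lower (log2 ratio of -2 or below), against 13.5% of all rows, and only GPX1 was at least 4-fold higher, against 12.5% of all rows. The same 8 were the ones at least 1.5-fold lower (34.7% of all rows), and GPX1 and PRDX5 were at least 1.5-fold higher (42.6% of all rows). Since the group was chosen on this contrast, nothing is read from these counts. The median log2 ratio was -3.05, or 8.26-fold lower, beside 0.28 over all rows. Together the 10 mRNAs held 1.24% of the summed FPKM of the input and 0.740% of that of the RIP.

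**Figure D1:**
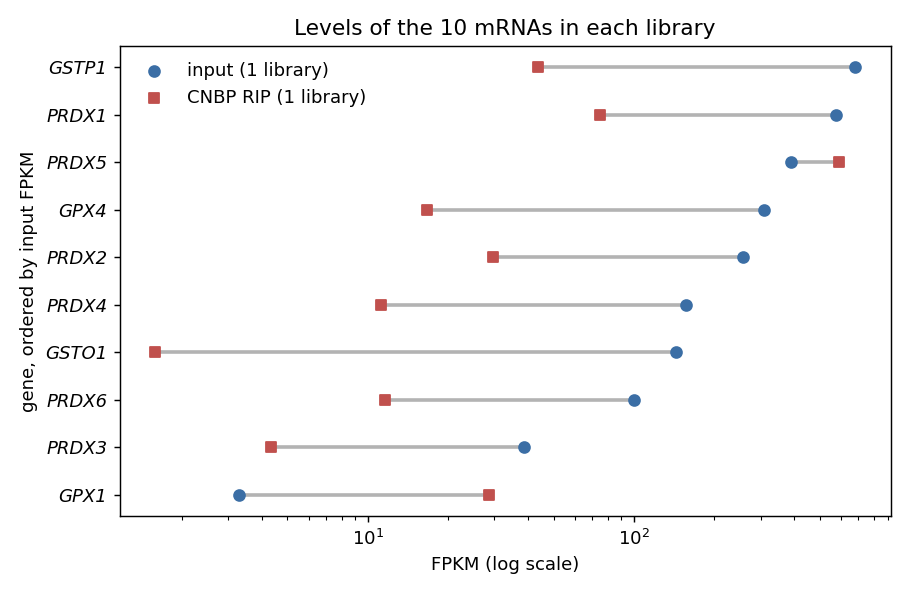
FPKM (log axis) of each gene in the input (circles) and the CNBP RIP (squares), 1 library each, joined by a line and ordered by input level. In 8 genes the RIP lies left of the input, while PRDX5 (392 and 590 FPKM) and GPX1 (3.28 and 28.5 FPKM) run the other way.

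PRDX1 and PRDX2 are the main cytosolic peroxiredoxins. PRDX1 had 574 FPKM in input RNA and 74.9 after RIP (log2 ratio -2.92), and PRDX2 had 258 and 29.5 (-3.09). PRDX1 exceeded PRDX2 by 2.22-fold in the input and by 2.54-fold in the RIP, so the pair kept nearly the same proportion in both libraries. In hg19, the build of the table, PRDX1 lies at chr1:45976708-45988719 on the minus strand and PRDX2 at chr19:12907634-12912673 on the minus strand.

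PRDX3 is the mitochondrial peroxiredoxin and PRDX4 that of the endoplasmic reticulum. PRDX3 (chr10:120927215-120938345, minus strand) had 38.7 FPKM in input RNA and 4.33 after RIP, a log2 ratio of -2.90. PRDX4 (chrX:23682379-23704516, plus strand) had 157 FPKM in input RNA and 11.2 after RIP, a log2 ratio of -3.70. PRDX4 was the lowest of the peroxiredoxins by ratio, at 13.0-fold lower.

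PRDX6 differs from the others in that it uses glutathione, delivered by GSTP1, and also has phospholipase activity. PRDX6 (chr1:173446405-173457946, plus strand) had 100.3 FPKM in input RNA and 11.6 after RIP, a log2 ratio of -3.01. The 5 peroxiredoxins other than PRDX5 thus lay within a narrow band of ratios, from -3.70 to -2.90, across inputs that ran from 38.7 to 574 FPKM.

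PRDX5, found in mitochondria, peroxisomes and the cytosol, was the exception among the peroxiredoxins. PRDX5 (ENSG00000126432.13_1, chr11:64085560-64089283, plus strand) had 392 FPKM in input RNA and 590 after RIP, a log2 ratio of 0.59 or 1.5-fold higher. It ranked 94 among all rows by input level and 6 by RIP level, while its ratio lay only at percentile 57.7 of all rows. In the RIP it stood 7.88-fold above PRDX1, the next of the group, and made up 72.7% of the FPKM of all 10 mRNAs. Without PRDX5, the other 9 held 1.06% of the summed FPKM of the input and 0.202% of that of the RIP. The ratio of PRDX5 exceeded that of PRDX3, the next highest peroxiredoxin, by 3.49 on the log2 scale.

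The glutathione peroxidases GPX1 and GPX4 are both selenoproteins, and the log2 ratios of their mRNAs had opposite signs. GPX4, which reduces peroxidised lipids in membranes and protects cells from ferroptosis, had 309 FPKM in input RNA and 16.7 after RIP, a log2 ratio of -4.14 or 17.6-fold lower. GPX1, which reduces hydrogen peroxide in the cytosol and mitochondria, had 3.28 FPKM in input RNA and 28.5 after RIP, a log2 ratio of 2.79 or 6.90-fold higher. In the input GPX4 was 94.5-fold above GPX1, whereas in the RIP GPX1 was 1.71-fold above GPX4. Their ratios differed by 6.92 on the log2 scale. GPX4 lies at chr19:1103925-1106790 on the plus strand and GPX1 (ENSG00000233276.3_1) at chr3:49394609-49396033 on the minus strand (hg19).

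GSTP1, the pi-class transferase that conjugates many electrophiles and drugs, was the most abundant of the group in the input. GSTP1 (chr11:67351066-67354131, plus strand) had 682 FPKM in input RNA and 43.6 after RIP, a log2 ratio of -3.94 or 15.3-fold lower. With PRDX1 it made up 47.2% of the input FPKM of the 10 mRNAs. GSTO1, an omega-class enzyme that acts as a thioltransferase and dehydroascorbate reductase, had 144.3 FPKM in input RNA and 1.59 after RIP, a log2 ratio of -5.81 or 56.2-fold lower. The ratio of GSTO1 lay at percentile 0.309 of all rows. GSTP1 exceeded GSTO1 by 4.73-fold in the input and by 27.5-fold in the RIP. GSTO1 (ENSG00000148834.12_2) lies at chr10:105995114-106027217 on the plus strand and has the longest locus of the group, 32.1 kb.

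By ratio the order from lowest to highest was GSTO1, GPX4, GSTP1, PRDX4, PRDX2, PRDX6, PRDX1, PRDX3, PRDX5 and GPX1. With 1 library per group, it cannot be said which neighbours in this order differ beyond a spread. Across the 10 genes, Spearman's rho between input and RIP level was 0.685, and without PRDX5 and GPX1 it was 0.833 (n = 8). PRDX5 and GPX1 were left out for their ratios, so the rise in rho follows from that choice and nothing is read from it. Both correlations describe genes measured in the same pair of libraries, and genes are not replicates.

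**Figure D2:**
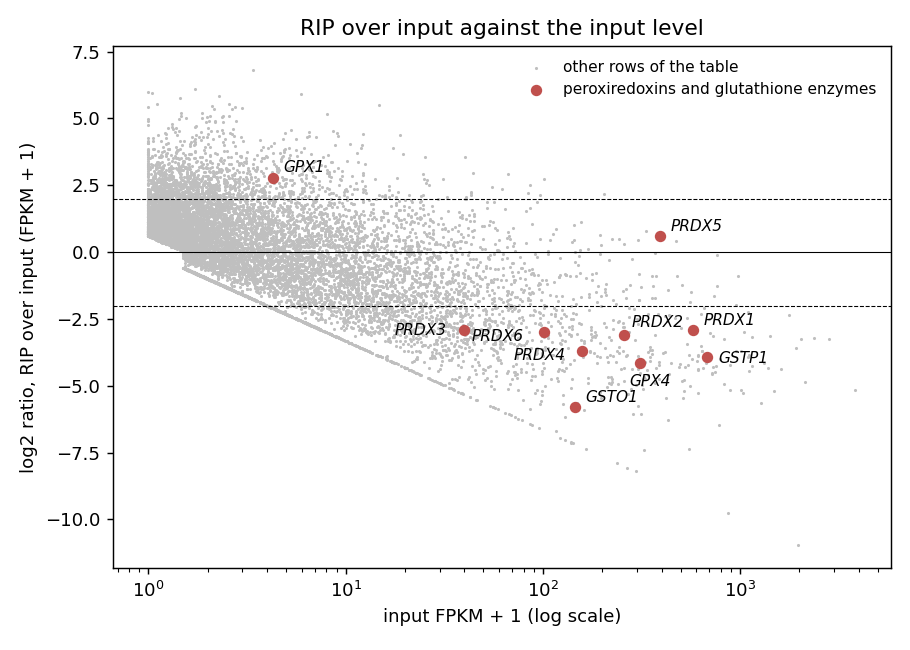
Log2 ratio of RIP over input (FPKM + 1) against input FPKM + 1 (log axis) for every row of the table (grey) and the 10 genes (named); dashed lines mark 4-fold. The grey cloud falls from left to right, and 8 of the 10 lie in its lower right part, with PRDX5 near its upper edge at 0.59 and GPX1 at 2.79.

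Ratios fell with the input level over the whole table, in part by construction. The input is the denominator of the ratio, and rows under 0.5 FPKM in the input are kept only where the RIP reaches 0.5 FPKM. With a pseudocount of 1, no row under 1 FPKM in the input can be 4-fold lower. How much of the fall comes from this was not tested. The median log2 ratio was 0.99 for the 3914 rows under 1 FPKM in the input, -2.21 for the 721 rows from 30 to 100 FPKM, -3.01 for the 224 rows from 100 to 300 FPKM and -3.93 for the 142 rows from 300 FPKM upwards. In the last 2 classes, 70.5% and 83.1% of rows were at least 4-fold lower. PRDX2, PRDX4, PRDX6 and GSTO1 fell in the class from 100 to 300 FPKM, and PRDX1, PRDX5, GPX4 and GSTP1 in the class above it. PRDX1 and PRDX5 lay above the median of their class, PRDX2, PRDX6, GPX4 and GSTP1 close to it, and PRDX4 and GSTO1 below it. PRDX3, in the class from 30 to 100 FPKM, also lay below its median. GPX1 fell among the 4536 rows from 1 to 10 FPKM, where the median was -0.06 and 527 rows were at least 4-fold higher. Only 7 rows of the lower class and 2 of the upper class passed the 1.5-fold rule upwards, and PRDX5 was 1 of those 2.

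Each gene was then set beside 105 to 108 rows of like input FPKM and like span, which is the length of the locus in the table. The likeness in input was loose for all but GPX1, since the input of like rows ran, for example, from 30.1 to 3835 FPKM for PRDX5 and from 30.4 to 696 FPKM for GSTO1, beside 1.95 to 3.36 FPKM for GPX1. The difference between a gene's log2 ratio and the median of its like rows was -3.50 for GSTO1, and none of its 106 like rows had a lower ratio. It was between -1.38 (PRDX4) and -0.30 (PRDX2) for the other 7 genes that were lower in the RIP. Between 19.0% and 43.0% of their like rows had a lower ratio than these 7. After every row had the median of its like rows subtracted, 1 of the 10 genes, GSTO1, was at least 4-fold lower (4.51% of all rows), in place of 8, and PRDX5 and GPX1 were at least 4-fold higher (10.0% of all rows). The median of the 10 was then -0.92 in place of -3.05. PRDX5 stood 3.64 above its like rows (percentile 96.2 of 105), and GPX1 stood 2.99 above its own (percentile 96.3 of 108).

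**Figure D3:**
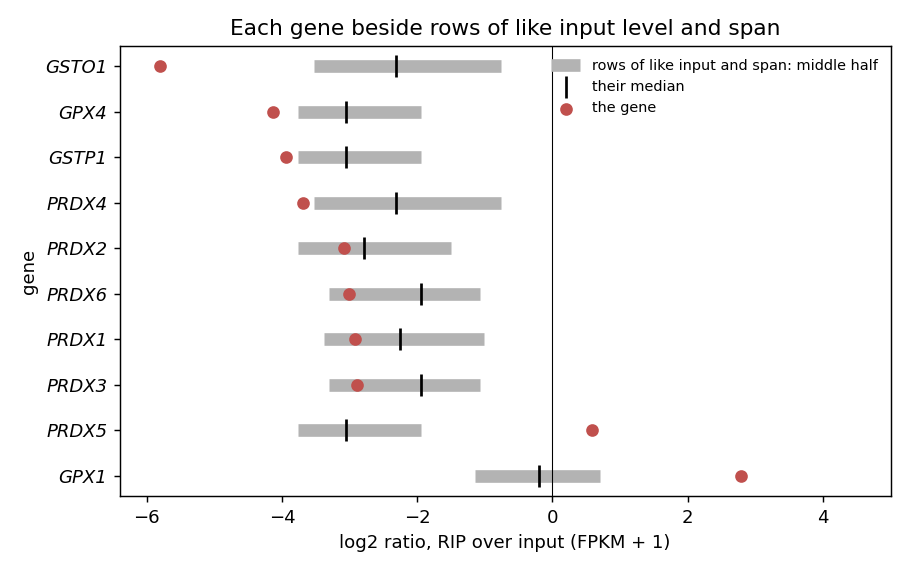
Log2 ratio of RIP over input (FPKM + 1) of each gene (points), with the median (tick) and the middle 50% (grey bar) of rows of like input level and span. GSTO1 lies 3.50 below its median, and PRDX5 and GPX1 lie 3.64 and 2.99 above theirs.

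The nearest genes to GSTO1 in the levels of both libraries were NDUFB11 (161 FPKM in the input, 1.71 in the RIP), a subunit of respiratory complex I, DDT (148 and 1.96), a relative of the cytokine MIF, and S100A10 (126 and 1.46), the partner of annexin A2. Those nearest to GPX1 were LRP5, a co-receptor for Wnt (3.30 and 28.7), C1orf115 (3.09 and 27.9) and FAM171A2 (3.40 and 27.1). Log2 ratios of the neighbours of GSTO1 ran from -5.91 to -5.65, beside -5.81 for GSTO1.

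Some loci share ground with other genes. The PRDX2 locus lies inside that of HOOK2 on the same strand, and HOOK2 had 39.1 FPKM after RIP and 2.74 in input RNA, opposite to PRDX2. MMACHC overlaps PRDX1 on the opposite strand and had 0.508 FPKM after RIP and 2.44 in input RNA. RHOA lies 545 bases from GPX1 on the same strand and, at 26.9 FPKM after RIP and 78.4 in input RNA, had a log2 ratio of -1.51 against 2.79 for GPX1. On the side of lower coordinates, TRMT112 lies 4 bases from PRDX5 on the opposite strand (24.6 FPKM in the RIP, 100.4 in the input). ESRRA lies on that side too, 1345 bases from PRDX5 and on the same strand as PRDX5 (122 and 11.5). GSTO2, 1414 bases from GSTO1, also had a low ratio (1.18 and 12.1, log2 ratio -2.58). RefSeq names 15 pseudogenes after 7 of the 10 genes, 4 each for PRDX2 and PRDX3, 2 each for PRDX4 and GPX1, and 1 each for PRDX1, PRDX5 and GSTP1. The sources used here do not say how fragments of near-identical copies or overlapping loci were assigned, so the levels of these genes are uncertain to that extent, and its part in the ratios was not tested.

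The enzymes and factors that work with this group were taken from 7 lists, of which 79 of 107 genes had a row. In these, the RIP was at least 4-fold below the input for 21 genes (13.5% of all rows) and at least 4-fold above it for 8 (12.5%). At the 1.5-fold rule 42 were lower (34.7% of all rows) and 16 higher (42.6%). The median log2 ratio of the 79 genes was -0.69. Their median input was 6.34 FPKM, beside 207.7 FPKM for the 10 genes and 1.95 FPKM over all rows. The share of rows at least 4-fold lower rose with the input level. It was 7.76% from 1 to 10 FPKM, 33.7% from 10 to 30 FPKM and 55.2% from 30 to 100 FPKM. The shares over all rows, here and for each list below, are not matched for input, so no excess is read from these counts.

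Of 27 other glutathione peroxidases and transferases, 9 had a row, 5 were at least 4-fold lower (13.5% of all rows), none was at least 1.5-fold higher, and the median log2 ratio was -2.32. The count at 4-fold fell to 0 with a pseudocount of 5 and to 3 when both libraries were rescaled to the mean of their sums. It rose to 6 with a pseudocount of 0.1 or 0.5 and on rescaling to a sum of 1000000. GSTK1, a mitochondrial and peroxisomal transferase, had 18.3 FPKM in input RNA and 1.41 after RIP, while GSTZ1 (3.47 and 2.19, -0.49) and GSTM4 (-0.69) were the highest. GSTT2B, MGST3 and GPX8 had 10.98, 6.34 and 2.22 FPKM in the input and were listed at 0 in the RIP.

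Thioredoxin and its reductases return most peroxiredoxins to the reduced form, and the list also holds glutaredoxins (such as GLRX) and SESN2. Of 17 genes with a row, 6 were at least 4-fold lower (13.5% of all rows) and 1 was at least 4-fold higher (12.5%). The median log2 ratio was -1.64. TXN, thioredoxin itself, had 419 FPKM in input RNA and 8.66 after RIP (-5.44), the lowest ratio in the 7 lists. TXNRD1, the cytosolic thioredoxin reductase, went the other way with 4.49 FPKM in input RNA and 32.1 after RIP (2.59). TXNDC17 (-3.05) and TXNRD3 (1.53) were the next at either end, and TXNDC9 had 4.62 FPKM in the input and was listed at 0 in the RIP.

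GPX1 and GPX4 need the machinery that inserts selenocysteine. Of 19 other selenoproteins and machinery genes with a row, 5 were at least 4-fold lower (13.5% of all rows). At least 4-fold higher was 1 (12.5% of all rows), and the median log2 ratio was -1.20. MSRB1, a methionine sulfoxide reductase, had 34.9 FPKM in input RNA and 2.29 after RIP, and SEPW1 had 18.6 and 0.795 (both -3.45). SEPN1, a selenoprotein of the endoplasmic reticulum, had 1.46 and 12.8 (2.49), and SECISBP2L 0.037 and 1.46 (1.25). PSTK, which acts in the making of selenocysteine, had 0.863 FPKM in the input and was listed at 0 in the RIP.

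In glutathione supply, 3 of 14 genes were at least 4-fold lower (13.5% of all rows) and 2 at least 4-fold higher (12.5%). The median log2 ratio was -0.40. GCLC, the catalytic subunit of the rate-limiting enzyme of glutathione synthesis, had 0.684 FPKM in input RNA and 9.74 after RIP (2.67), and OPLAH, which opens 5-oxoproline, had 0.999 and 8.43 (2.24). ESD and GLO1, which handle glutathione adducts of formaldehyde and methylglyoxal, had 46.4 and 39.7 FPKM in the input and 1.54 and 3.23 in the RIP (-4.22 and -3.27).

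The lists of superoxide dismutases with catalase, of NADPH supply and of redox transcription factors with their targets had medians of -0.26 (4 genes), -0.00 (7 genes) and 0.39 (9 genes). SOD1, the cytosolic superoxide dismutase, had 305 FPKM in input RNA and 45.9 after RIP (-2.70), SOD2 had a log2 ratio of -0.60, CCS 0.08, and CAT 0.73 with 6.26 and 11.05 FPKM. In NADPH supply, ME1 (-1.07) was lowest, and IDH2 (0.40) and NADK2 (2.44, from 0.553 to 7.40 FPKM) were highest. MAFG, a small MAF partner of the NRF factors, had 1.23 FPKM in input RNA and 27.7 after RIP (3.68), and NFE2L1 had 6.04 and 74.1 (3.42). NFE2L2, which drives many genes of glutathione metabolism, had 5.07 and 1.92 (-1.06), and its target NQO1 had 151 and 23.1 (-2.66). The ratios of list genes above are not adjusted for input level. Less the median of rows of like input and span, some named genes came close to 0. These were NQO1 (-0.27), TXNDC17 (-0.27), MSRB1 (-0.74), SOD1 (-0.76) and SECISBP2L (0.25). Others stayed far from 0, such as TXN (-3.19), MAFG (3.60) and NFE2L1 (4.05).

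**Figure D4:**
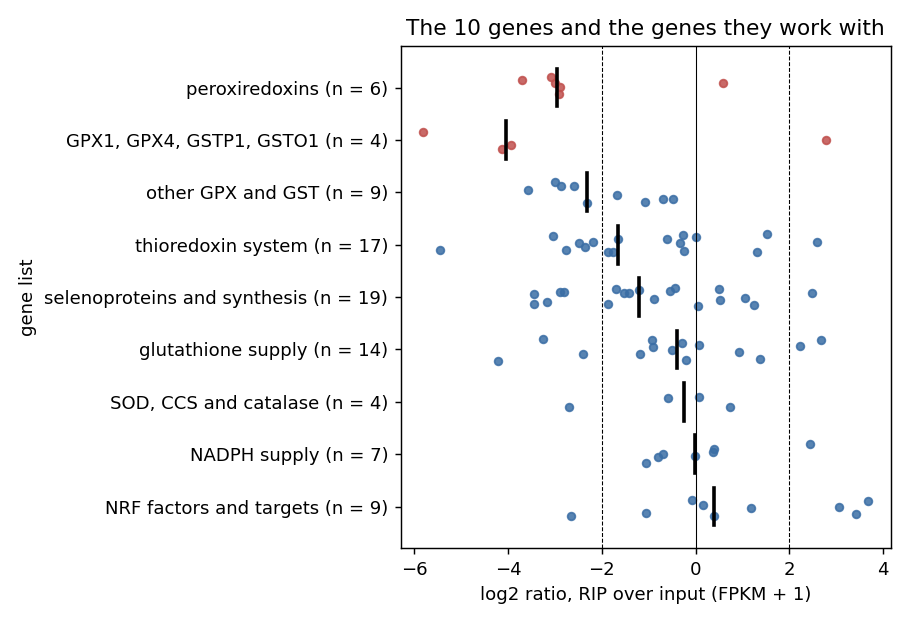
Log2 ratio of RIP over input (FPKM + 1) for the 10 genes (red, in 2 groups) and the 7 lists of genes that work with them (blue); each point is a gene, thick bars are medians, dashed lines mark 4-fold. The medians run from -4.04 for the glutathione enzymes to 0.39 for the redox transcription factors and their targets.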

How the data were processed

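Per the file headers and the labels, the authors deposited FPKM per protein-coding gene for 1 input and 1 CNBP RIP library, made with a stranded kit. Build hg19 and the tools cutadapt, FastQC, HISAT2 and StringTie are listed in the submitters' processing notes, with no version or role. FPKM is not scaled to a common sum and assumes even coverage along a transcript. Depth is unknown, so no counting interval is given.

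Ratios used a pseudocount of 1, which understates those of low genes. Genes were counted at log2 2 (4-fold, the rule the study states) and 0.58 (1.5-fold). Like rows came from 10 bins of input FPKM with 10 bins of span in each, without the 10 genes. Only the subtraction of the median of like rows was tested on simulated data. Python 3.11.15, pandas 2.3.3, numpy 2.4.6 and matplotlib 3.10.9 were used. Sequences are from RefSeq.

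Members and lists were chosen with earlier results of these data known. Named are all 10 members, the 2 highest and 2 lowest ratios of each list among genes above 0 in both libraries, list genes at 0 in 1 library, and the 3 genes nearest to GSTO1 and GPX1. A gene that this rule takes in is not reported here. Overlapping and adjacent genes were named after their values were seen. Alternatives were other pseudocounts, scalings, centrings, and filters.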

Additional observations from a re-analysis of the deposited data

How the results depend on the processing

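No result changed sign among the 10 genes under the other pseudocounts (0.1, 0.5 and 5), the rescalings of the library sums, centring on the median row, the subtraction of rows of like input and span, the filter at 1 FPKM in both libraries or the summing of rows of a symbol. Centred on the median row, 1 gene in place of 2 was at least 1.5-fold higher. Less the median of rows of like input and span, 1 gene was at least 4-fold lower, 2 were at least 4-fold higher and the median log2 ratio was -0.92, beside 489 lower and 1084 higher of all 10836 rows. Rescaling to the mean of the sums moved the median of all rows from 0.28 to 0.85 and that of the 10 genes to -2.11, and PRDX1 came to -1.96, just short of 4-fold lower, so 7 genes in place of 8 passed that rule. Over all rows it gave 886 at least 4-fold lower and 2454 higher, in place of 1464 and 1352, rescaling to a sum of 1000000 gave 1692 and 4267 with a median of 1.30, a pseudocount of 5 gave 722 and 335, and a pseudocount of 0.1 gave 2456 and 3025. The medians of glutathione supply, of superoxide dismutases with catalase and of NADPH supply turned positive on rescaling to the mean of the sums (0.30, 0.52 and 0.76). In the thioredoxin list, 9 genes were at least 4-fold lower with a pseudocount of 0.1 and 2 with a pseudocount of 5, in place of 6. For selenoproteins and their machinery these counts were 8 and 3, in place of 5. GSTO1 ranged from -6.42 to -3.50, PRDX5 from 0.31 to 3.64 and GPX1 from 2.02 to 4.00 over all settings. No paired analysis was possible because each group holds 1 library. Without read counts, depth limits the low values (GSTO1 in the RIP, GPX1 in the input) to an unknown degree.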
